A study of Mus musculus with 4 samples.

Results

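The genes described here are the 10 that encode the calcium-dependent phosphatase calcineurin, its Rcan regulators and the NFAT transcription factors it controls, namely Ppp3ca, Ppp3cb, Ppp3cc, Ppp3r1, Rcan1, Rcan2, Nfatc1, Nfatc2, Nfatc3 and Nfatc4. They were chosen by name, and their probes were taken as those whose accession is a RefSeq transcript of one of these genes. This gave 13 probes for the 10 genes, out of 55681 probes for 37074 genes or unnamed transcripts on the array. Primary chondrocytes, the cells that make cartilage, had been obtained from 6-day-old mice on the C57BL/6J background. The study asked which genes depend on Rela, the p65 subunit of NF-kB, when chondrocytes meet the inflammatory cytokine TNF. Both genotypes carried 2 floxed Rela alleles (Rela fl/fl), and the cKO littermates also carried Prrx1-Cre, a Cre recombinase driven by the Prrx1 promoter, which is active in the limb mesenchyme from which limb cartilage forms. Cells of each genotype were cultured for 3 days either with 10 ng/mL TNF or without it. There were 4 one-colour Agilent arrays, 1 for each combination of genotype and TNF, and the labels do not say whether the RNA of an array came from 1 animal or from several. With 1 array per group no difference has a replicate check, so no p-value is given.

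Calcineurin is a serine/threonine phosphatase made of a catalytic subunit, encoded by Ppp3ca, Ppp3cb or Ppp3cc, and a calcium-binding regulatory subunit, encoded in most tissues by Ppp3r1. A rise in cytosolic calcium lets calmodulin bind and activate it, and it then strips phosphates from NFATc1 to NFATc4, which move into the nucleus and act on genes there. Rcan proteins bind calcineurin and can inhibit it. In skeletal tissue NFATc1 is best known as the master regulator of osteoclast formation, and NFAT factors have also been studied as restraints on cartilage breakdown in the joint. Rcan1 has a downstream alternative promoter that is known to answer to calcineurin and NFAT, so its transcript is often read as feedback of the pathway. An array reads transcripts, and neither the phosphatase activity nor the location of NFAT proteins was measured.

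Promoter sequences are shown for Nfatc4 and Rcan1, the 2 genes with the widest range among probes well above background on all 4 arrays. Of the 10 genes, 7 had a promoter in the RefSeq table of GRCm38.p6, with 12 promoters of 300 bases in all, each from 250 bases before to 50 bases after a transcript start. Capitals mark GGAAA, the core of NFAT sites, and its reverse complement TTTCC. The sequences run 5′ to 3′ on the strand of the gene. The upstream Rcan1 promoter lay at chr16:92466120-92466419 and the downstream one at chr16:92400029-92400328, both on the minus strand, and the Nfatc4 promoter at chr14:55824545-55824844 on the plus strand.
Rcan1, upstream promoter: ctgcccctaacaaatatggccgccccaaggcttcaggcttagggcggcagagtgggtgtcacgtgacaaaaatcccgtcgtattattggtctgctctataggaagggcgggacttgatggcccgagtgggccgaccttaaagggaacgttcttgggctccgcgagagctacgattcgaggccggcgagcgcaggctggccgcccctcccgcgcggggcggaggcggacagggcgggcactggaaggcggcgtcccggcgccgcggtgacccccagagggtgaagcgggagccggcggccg
Rcan1, downstream promoter: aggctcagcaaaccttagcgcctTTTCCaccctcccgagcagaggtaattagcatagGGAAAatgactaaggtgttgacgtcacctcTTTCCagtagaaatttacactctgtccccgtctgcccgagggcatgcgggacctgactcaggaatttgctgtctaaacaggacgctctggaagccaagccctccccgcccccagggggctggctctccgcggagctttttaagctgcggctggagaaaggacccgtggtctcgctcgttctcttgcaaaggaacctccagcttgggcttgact
Nfatc4: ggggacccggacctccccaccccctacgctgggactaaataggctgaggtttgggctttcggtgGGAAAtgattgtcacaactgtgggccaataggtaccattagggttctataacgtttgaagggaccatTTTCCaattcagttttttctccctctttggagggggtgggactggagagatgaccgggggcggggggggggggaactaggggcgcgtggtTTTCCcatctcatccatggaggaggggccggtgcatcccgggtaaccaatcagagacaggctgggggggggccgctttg

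The downstream Rcan1 promoter held 3 GGAAA matches on either strand, 227, 193 and 163 bases before the start, and the upstream one held none. The Nfatc4 promoter held 3 matches as well, at 186, 119 and 29 bases before the start. Across the 32851 promoters of the table, 61.3% held at least 1 match and 9.42% held at least 3. Ppp3cb had 4 matches, 1 of the Nfatc2 promoters had 3, and 5 of the 12 promoters had none. The downstream Rcan1 promoter also held 1 match to TGANTCA, the AP-1 core, 110 bases before the start. This motif was looked for after the sequence had been seen, 7.81% of all promoters held it, and 1 Rcan2 promoter held it too. None of the 12 promoters held a match to the NF-kB motif, which 8.46% of all promoters held. The letters GGAAA also lie inside the motifs of other factors, NF-kB among them, and a match is a description of the sequence, not a site at which binding was measured. The files do not show from which of the Rcan1 promoters the transcripts read by its probe came.

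Before the members are described, some facts of the 4 arrays bear on how far each value can be read. The 75th percentile of the processed intensity of transcript spots was 590 to 634 on the 4 arrays, and 50.9% to 58.1% of probes were well above background. Patches of neighbouring spots that were bright on a single array covered 1.04% to 10.7% of spots, most on the array of Rela fl/fl cultures without TNF and fewest on the cKO array with TNF. Rela itself, read by 1 probe, had signals of 28.3 and 34.7 in Rela fl/fl cultures without and with TNF, and 34.0 and 40.2 on the cKO arrays, in multiples of the array's 75th percentile. It was thus not lower on the cKO-labelled arrays, and the files do not give whether the probe lies in the deleted exons. Those 2 arrays are therefore called the cKO-labelled arrays. They also differed from the others in sex-linked transcripts. Xist, the RNA that silences an X chromosome in female cells, passed background clearly on both arrays of Rela fl/fl cultures, at 0.715 and 0.752, and on neither cKO-labelled array. The Y-linked genes Ddx3y and Eif2s3y were well above background on all 4 arrays, at 1.30 and 1.30 for Ddx3y on the Rela fl/fl arrays and at 1.77 and 1.84 for Eif2s3y. Xist and the Y-linked transcripts were thus found together on each Rela fl/fl array. Both Y-linked genes were 2.81-fold to 3.56-fold higher on the cKO-labelled arrays. Genotype and the sex of the animals cannot be told apart here, and every genotype difference below carries that limit. Every array gave signals well above background for all 8 chondrocyte markers, Col2a1, Acan and Sox9 among them.

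Of the 13 member probes, 11 were well above background on all 4 arrays, and they represent 9 of the 10 genes. The exception was Nfatc2, with 1 probe well above background on no array and the other on 3 of the 4. Signals are given as multiples of the 75th percentile of the array, which lets a probe be compared between arrays but not with another probe. Differences are on the log2 scale, and where a value was not well above background, the lowest signal of that array that was so took its place. The technical spread of such a difference was 0.138 on the log2 scale (SD), from probes spotted 10 times on each array. It was 0.237 at log2 signals under -1, 0.114 from -1 to 1 and 0.0807 above that. This spread leaves out the differences between cultures and animals, which were not measured.

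**Figure D1:**
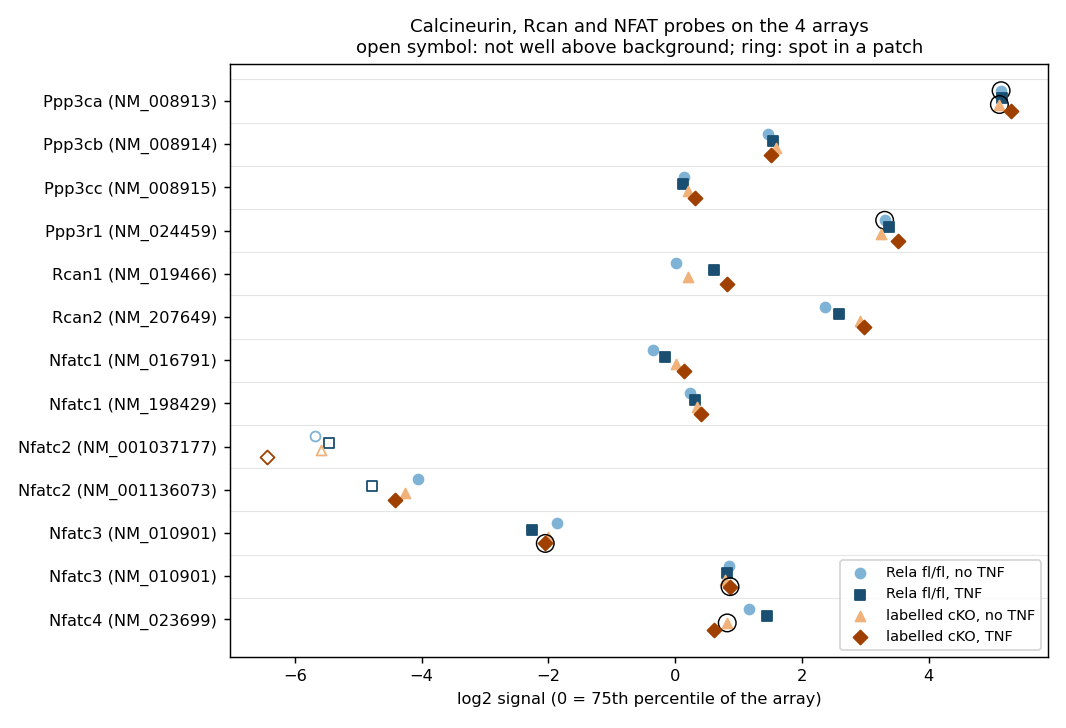
Log2 signal of the 13 member probes (rows) on the 4 arrays, where 0 is the 75th percentile of the array; 1 symbol is 1 array, open symbols are not well above background and rings mark spots in a patch. For most probes the 4 symbols lie close together, and the widest separation among probes well above background on all 4 arrays is that of Nfatc4, with a range of 0.84.

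The calcineurin subunits differed by 1.21-fold at most in any comparison. Ppp3ca, the catalytic alpha subunit, had signals of 35.4 without and 35.6 with TNF in Rela fl/fl cultures, and of 34.7 and 39.5 on the cKO-labelled arrays. Its highest value, on the cKO-labelled array with TNF, was 1.14-fold above the lowest, and its spot lay in a patch on both arrays without TNF. Ppp3cb, the catalytic beta subunit, ranged from 2.77 to 3.01 with the highest value on the cKO-labelled array without TNF. Ppp3cc, the catalytic gamma subunit, ranged from 1.09 to 1.25 with the highest value on the cKO-labelled array with TNF. None of the catalytic subunits differed by more than 0.19 in any comparison. Ppp3r1, the regulatory B subunit, had signals of 9.90 and 10.4 without and with TNF in Rela fl/fl cultures, and of 9.48 and 11.5 on the cKO-labelled arrays. Its TNF difference was 0.07 in Rela fl/fl cultures and 0.27 on the cKO-labelled arrays, the widest of any subunit, and its spot in Rela fl/fl cultures without TNF lay in a patch. The technical spread at log2 signals of 1 and over, as of Ppp3ca, Ppp3cb and Ppp3r1, was 0.0807. For 3 of the 4 subunits (Ppp3ca, Ppp3cc and Ppp3r1) the cKO-labelled array with TNF was the highest of the 4, and there the median difference of all genes from the cKO-labelled array without TNF was 0.06.

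Rcan1, the feedback inhibitor, was higher with TNF in both genotypes and by almost the same amount. Its signal was 1.01 in Rela fl/fl cultures without TNF and 1.54 with it, a 1.52-fold difference. On the cKO-labelled arrays it was 1.15 without and 1.76 with TNF, a 1.53-fold difference. Both arrays with TNF lay above both arrays without it. On the log2 scale the TNF differences were 0.60 and 0.61, and they differed from each other by 0.01, within the technical spread. Over all other scalings and background corrections tried they were 0.48 to 0.61 in Rela fl/fl cultures and 0.50 to 0.60 on the cKO-labelled arrays. No spot of the probe lay in a patch. Of the genes well above background on both arrays, 97.5% of 20628 in Rela fl/fl cultures and 98.5% of 22500 on the cKO-labelled arrays had a lower TNF difference than Rcan1. The genotype differences of Rcan1 were small, 0.19 without and 0.20 with TNF, with the cKO-labelled array the higher one each time.

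Rcan2, the second regulator of the family, was ordered the other way, by genotype rather than by TNF. Its signals were 5.15 and 5.99 without and with TNF in Rela fl/fl cultures, and 7.58 and 7.90 on the cKO-labelled arrays. Both cKO-labelled arrays lay above both Rela fl/fl arrays, by 0.56 (1.47-fold) without TNF and 0.40 (1.32-fold) with it. The difference without TNF was higher than that of 94.96% of 20736 genes, and with TNF than that of 92.1% of 21913. TNF differences were 0.22 in Rela fl/fl cultures and 0.06 on the cKO-labelled arrays, and the second of these changed sign between scalings, from -0.06 to 0.08. No spot of this probe lay in a patch either.

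**Figure D2:**
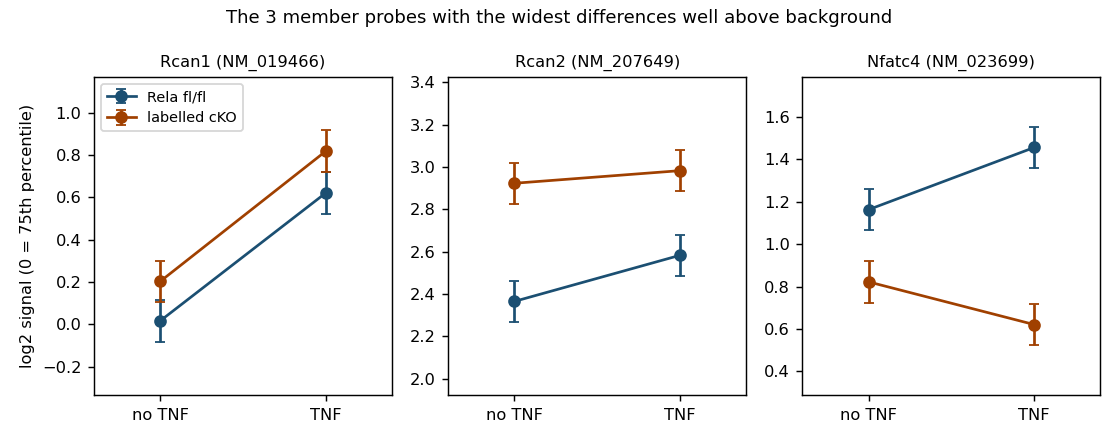
Log2 signal (0 is the 75th percentile of the array) without and with TNF in Rela fl/fl cultures (blue) and on the cKO-labelled arrays (brown) for Rcan1, Rcan2 and Nfatc4, with equal spans on the vertical axes. Points are single arrays and bars are 1 technical SD of a single spot, 0.10 on the log2 scale; the Rcan1 lines run nearly in parallel (0.60 and 0.61), the Rcan2 lines are set apart by genotype, and the Nfatc4 lines diverge with TNF.

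Nfatc4, which is expressed widely outside the immune system, had the widest range among the member probes well above background on all 4 arrays. Its signals were 2.24 without and 2.75 with TNF in Rela fl/fl cultures, and 1.77 and 1.54 on the cKO-labelled arrays. Both cKO-labelled arrays lay below both Rela fl/fl arrays. The difference was -0.34 (1.27-fold lower) without TNF and -0.84 (1.79-fold lower) with it. Of the 21913 genes well above background on both arrays with TNF, 1.98% had a lower difference. The TNF difference was 0.29 in Rela fl/fl cultures and -0.20 on the cKO-labelled arrays, so the signal was higher with TNF in one genotype and lower in the other, by 0.49 between them. The spot lay in a patch on the cKO-labelled array without TNF, which enters -0.34 and -0.20 but not -0.84. Over the alternatives in scaling and background the difference with TNF ran from -0.90 to -0.78. In RNA of a whole culture, fewer cells of a type and less RNA per cell cannot be told apart. Of the 8 chondrocyte markers, 8 were lower on the cKO-labelled array without TNF and 7 with it, with median differences of -0.41 and -0.15. Their summed signal, to which Col2a1 (582 to 607) gave the largest part, was 1097 and 1035 in Rela fl/fl cultures without and with TNF, against 885 and 924. Matn1, a cartilage matrix protein, was 3.61-fold and 2.27-fold lower, more than Rcan2 or Nfatc4 differed in these comparisons. Acan, the main cartilage proteoglycan, was 1.52-fold lower without TNF and 1.39-fold lower with it, its spot lying in a patch on the cKO-labelled array with TNF. Of the 5 fibroblast markers, 4 and 5 were lower, with summed signals of 637 and 651 against 587 and 569, and Thy1 was 3.00-fold and 1.21-fold lower. The 2 skeletal muscle markers well above background on all 4 arrays, Acta1 and Tnnt3, had genotype differences of 0.55 and 0.18 without TNF and 0.54 and 0.41 with it, none past 1.5-fold, and the summed signal of the 6 muscle markers was 2.16 and 1.97 against 3.06 and 2.83. Ckm, Myog and Mylpf, defining muscle genes, were not well above background on any array. Myh3 was well above background on the cKO-labelled array without TNF alone, at 0.0541. Of the 4 macrophage markers well above background, 2 were higher and 2 lower on the cKO-labelled array without TNF, and 1 was higher and 3 lower with it. Their summed signal was 38.7 and 35.4 in Rela fl/fl cultures against 43.8 and 34.9, most of it from Itgam (31.8 to 40.3). Without TNF Lyz2 was 4.30-fold lower and Adgre1 7.33-fold higher on the cKO-labelled array, each with its brighter spot in a patch. With TNF Lyz2 was 1.915-fold and Adgre1 1.41-fold lower, with no patch at these spots. Csf1r and Itgam did not pass 1.5-fold in either genotype comparison. Ptprc, the general leukocyte marker, was well above background on no array. The part of these shifts in the Rcan2 and Nfatc4 genotype differences was not tested.

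Nfatc1, the factor that drives osteoclast formation, had 2 probes that gave differences of unequal size. The probe for NM_016791 had signals of 0.784 and 0.896 without and with TNF in Rela fl/fl cultures, and of 1.007 and 1.103 on the cKO-labelled arrays. The genotype difference of this probe was 0.36 without and 0.30 with TNF. The probe for NM_198429, the brighter of the pair, gave 1.17 and 1.25 in Rela fl/fl cultures against 1.26 and 1.32 on the cKO-labelled arrays, or 0.11 and 0.08. Both probes rank the 4 arrays in the same order, and in each the TNF differences were smaller than 0.20. They read different transcript records, and the files do not hold their sequences.

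The 2 Nfatc3 probes gave differences of unequal size, and of the Nfatc2 probes a single one could be read. The brighter Nfatc3 probe had signals between 1.73 and 1.82 on the 4 arrays, a range of 0.08 on the log2 scale, below the technical spread. The dimmer Nfatc3 probe, for the same transcript record, had signals of 0.274 and 0.209 without and with TNF in Rela fl/fl cultures and of 0.249 and 0.242 on the cKO-labelled arrays. Its TNF difference in Rela fl/fl cultures was -0.39 beside -0.03 for the brighter probe. Both spots lay in a patch on the cKO-labelled array with TNF. For Nfatc2, the factor best known from T cells, the probe for NM_001037177 was not well above background on any array. The probe for NM_001136073 was well above background on 3 arrays, at 0.0601 in Rela fl/fl cultures without TNF and 0.0520 and 0.0469 on the cKO-labelled arrays without and with TNF. In Rela fl/fl cultures with TNF it was not well above background, which gives a signal at least 1.64-fold lower than without TNF. On the log2 scale this bound was -0.71, but -0.57 after quantile normalization and -0.32 after normexp background correction, short of 1.5-fold in both.

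None of the 10 genes differed by the 2-fold limit in any of the 4 comparisons. Among all genes tested the share past 2-fold, in either direction, was 6.67% for TNF in Rela fl/fl cultures and 5.49% for TNF on the cKO-labelled arrays. It was 7.92% for genotype without TNF and 4.39% for genotype with TNF. These shares depend on the processing, and with patches left out they were 1.33%, 2.68%, 2.34% and 2.13%. Past a lower limit of 1.5-fold, 2 of the 10 genes were counted for TNF in Rela fl/fl cultures, Rcan1 higher and Nfatc2 lower, beside 10.8% of all genes. On the cKO-labelled arrays it was 1, Rcan1 higher, beside 12.1%. For genotype it was 0 without TNF, beside 13.6%, and 1 with TNF, Nfatc4 lower, beside 10.2%. Counts of 0 to 2 among 10 genes do not set the members apart from these shares. Rcan1 lay close to the 1.5-fold limit. On the cKO-labelled arrays it fell short of the limit without scaling, after quantile normalization and in the scaled values of the authors, and in Rela fl/fl cultures in those scaled values and after normexp background correction. Rcan2 passed it for genotype without TNF (0.60) when no scaling was used.

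**Figure D3:**
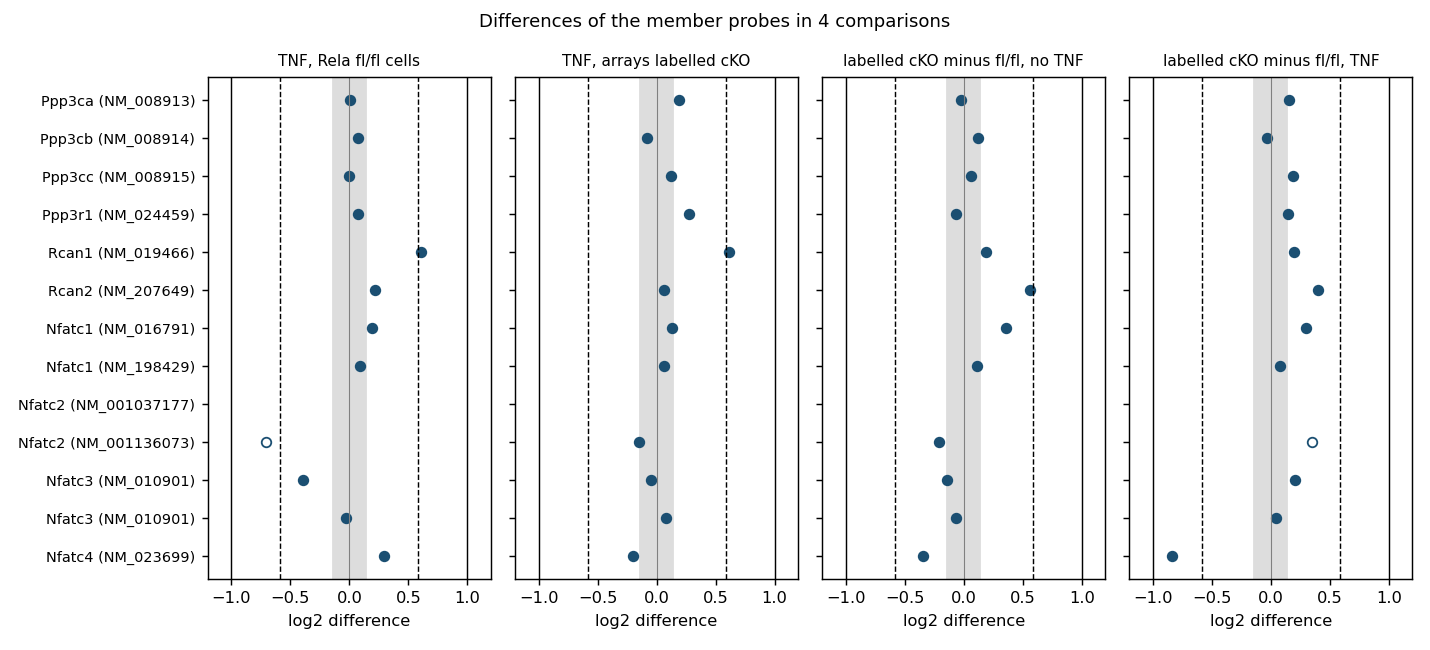
Log2 differences (horizontal axes) of the member probes (rows) in the 4 comparisons, each between 2 single arrays. The grey band is 1 technical spread (0.138 to either side), dashed lines mark 1.5-fold and solid lines 2-fold, and open circles rest on a value that was not well above background; Rcan1 passes the dashed line in both TNF panels, Nfatc2 (open) in the panel of TNF in Rela fl/fl cultures and Nfatc4 in the genotype panel with TNF. No circle reaches a solid line, and the Nfatc2 probe that was well above background on no array has no circle.

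The members as a group were centred near the bulk of the array. Over the members well above background on both arrays, the median TNF difference was 0.07 in Rela fl/fl cultures (9 genes) and 0.07 on the cKO-labelled arrays (10 genes), beside 0.01 and 0.06 for all genes. The median genotype difference was 0.02 without TNF (10 genes) and 0.14 with TNF (9 genes), beside 0.01 and 0.05. Differences within 1 technical spread were found for 6 of 9 genes for TNF in Rela fl/fl cultures, where 58.4% of all genes lay within it. They were found for 5 of 10 genes for TNF on the cKO-labelled arrays, where the share of all genes was 45.4%. For genotype the counts were 6 of 10 without TNF and 3 of 9 with TNF, beside 51.7% and 47.0%.

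**Figure D4:**
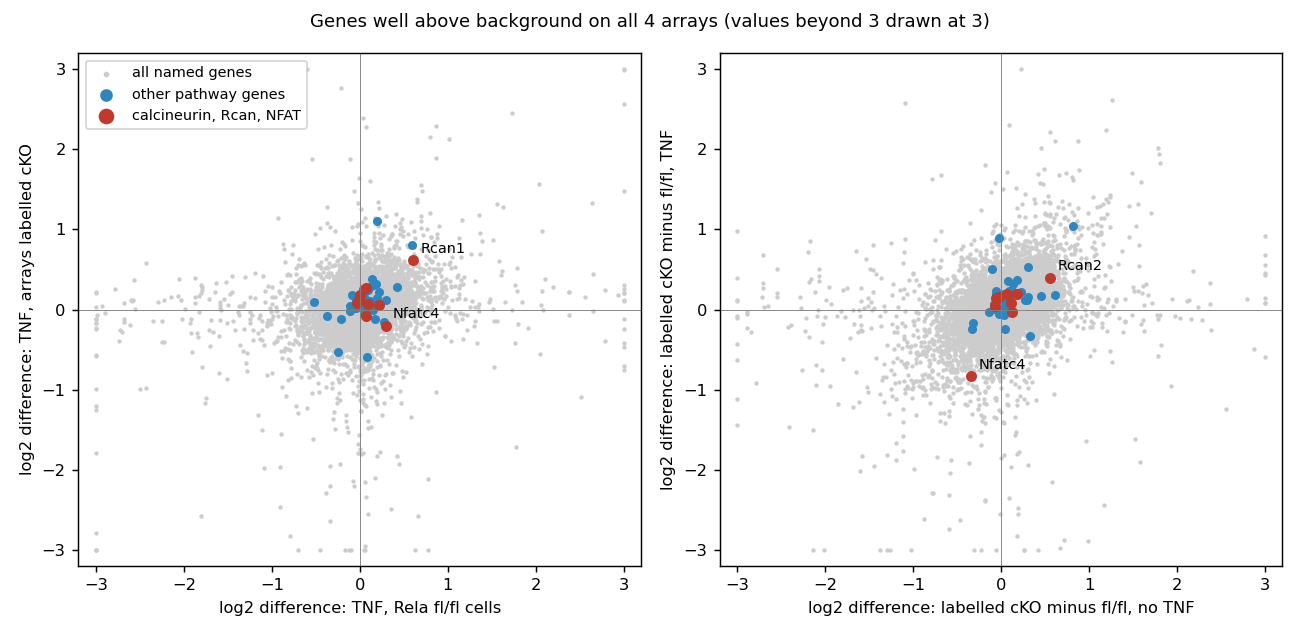
Log2 TNF difference in Rela fl/fl cultures against that on the cKO-labelled arrays (left), and log2 genotype difference without TNF against that with TNF (right), for 13349 named genes well above background on all 4 arrays (grey), 43 genes of the calcineurin and NFAT pathway lists (blue) and 9 members (red). Names are given to members past 2 technical spreads in either direction of a panel: Rcan1 lies at 0.60 and 0.61 on the left and Nfatc4 at -0.34 and -0.84 on the right.

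Around the members, 55 further genes of the pathway were followed in 6 lists, and 43 of them were measured well above background on every array. The lists held 10 genes of calcium release and entry, 3 calmodulin genes, 11 other binding or inhibitory proteins of calcineurin, 9 NFAT kinases and transport factors, 8 other calcineurin-responsive factors and 14 NFAT targets known from other cells. Past 2-fold, 1 of 44 genes tested was counted for TNF in Rela fl/fl cultures, 1 of 43 for TNF on the cKO-labelled arrays, 0 of 43 for genotype without TNF and 2 of 44 with TNF. The shares of all genes past this limit, again 6.67%, 5.49%, 7.92% and 4.39%, do not set these small counts apart. With patches left out the counts were 1 of 37, 1 of 40, 0 of 35 and 2 of 42, beside 1.33%, 2.68%, 2.34% and 2.13%. All genes of calcium release and entry, calmodulin, and NFAT kinases and transport were well above background on the 4 arrays, and none passed 2-fold in any comparison. Past 1.5-fold these lists held Stim2 alone, a sensor of calcium in the endoplasmic reticulum. Its signals were 0.184 and 0.222 without and with TNF in Rela fl/fl cultures and 0.281 and 0.253 on the cKO-labelled arrays, and the genotype difference without TNF was 0.61.

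Among the pathway genes measured on every array, the widest differences were those of 2 NFAT targets, Itgb3 and Ptgs2, from a list of which 5 of 14 genes were so measured. Itgb3, the integrin beta3 chain, had signals of 0.770 and 0.881 without and with TNF in Rela fl/fl cultures, and of 0.760 and 1.63 on the cKO-labelled arrays. The cKO-labelled array with TNF thus stood above the other 3, by 1.104 (2.15-fold) over the cKO-labelled array without TNF and by 0.89 over Rela fl/fl cultures with TNF. Ptgs2, the inducible cyclooxygenase of prostaglandin synthesis, had signals of 0.486 and 0.732 without and with TNF in Rela fl/fl cultures, and of 0.859 and 1.51 on the cKO-labelled arrays. It was higher with TNF in each genotype, by 0.59 and 0.81, and higher on the cKO-labelled arrays, by 0.82 without and 1.04 with TNF. The 2-fold differences of Itgb3 (TNF on the cKO-labelled arrays) and Ptgs2 (genotype with TNF) fell short of 2-fold without scaling, in the scaled values of the authors and after normexp. Some of the 10 Ptgs2 spots lay in patches on both Rela fl/fl arrays, and Ptgs2 is also a known target of NF-kB. The other 3 targets measured on all arrays, Acp5, Ctsk and Oscar, are osteoclast genes and did not pass 1.5-fold in any comparison. The summed signal of the 6 osteoclast markers was 42.9 and 45.4 without and with TNF in Rela fl/fl cultures and 41.3 and 48.5 on the cKO-labelled arrays, most of it from Ctsk (35.6 to 42.2). Of these markers 4, Ocstamp (0.131 to 0.165) among them, were well above background on every array, and Calcr and Dcstamp on none. Of the 7 T cell markers, Cd3e, Cd4 and Lck were well above background on all 4 arrays, Cd3d and Cd8a on 1 array each, and Cd3g and Cd2 on none. Cd3e and Cd4 did not pass 1.5-fold in any comparison. Lck was 1.62-fold lower on the cKO-labelled arrays without TNF and 2.45-fold lower with it. Its spot lay in a patch on the cKO-labelled array without TNF. None of the arrays gave a signal well above background for the T cell NFAT targets Il2, Il4, Ifng, Csf2, Fasl and Cd40lg.

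Of the remaining lists, Mef2c, a transcription factor of chondrocyte hypertrophy that calcineurin can activate, had signals of 0.119 and 0.126 without and with TNF in Rela fl/fl cultures. On the cKO-labelled arrays it had 0.150 and 0.100, a difference of -0.59 with TNF. Akap5, which anchors calcineurin at membranes, was well above background on the array of Rela fl/fl cultures with TNF alone, at 0.131. That is at least 2.50-fold higher than in Rela fl/fl cultures without TNF and at least 4.92-fold higher than on the cKO-labelled array with TNF. It rests on 1 dim spot, and both differences fell short of 2-fold after normexp background correction. No other gene of these lists passed 1.5-fold.

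Rcan1 was also the member with the widest range among probes well above background and free of patches on all 4 arrays, so the genes with the most similar pattern were sought for it. Likeness was the distance between the 4 log2 values of 2 genes, each centred on its own mean, over 9657 named genes well above background on all 4 arrays and free of patches. The 3 nearest were H2-Eb1, an MHC class II chain, at 0.102, Arhgap18 at 0.103, and Csrnp1, a nuclear protein, at 0.103. Their TNF differences were 0.60, 0.55 and 0.55 in Rela fl/fl cultures and 0.49, 0.49 and 0.56 on the cKO-labelled arrays. These distances rest on 4 values per gene and are given as a description.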

How the data were processed

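RNA of 4 chondrocyte cultures had been hybridized in Cy3 to SurePrint G3 8 x 60K mouse arrays and read with Agilent Feature Extraction 10.10.1.1, per the labels. The authors deposited the processed intensity of each spot, which that software had corrected for background and spatial trend, with flags for outliers and for spots well above background, and a table of intensity values scaled by 1 factor per array. The array design names the build mm9. No file maps probes to symbols, so accessions were matched to the RefSeq table of GRCm38.p6, which named 27229 of 55681 probes, and coordinates are given for promoters alone.

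The deposited intensity was put on the log2 scale and centred on the 75th percentile of each array, over transcript spots. Outlier spots were left out and spots of a probe averaged. In counts a gene was represented by its brightest probe on average. A gene passed a limit at 2-fold or 1.5-fold if its brighter array was well above background, and a dimmer value that was not well above background was replaced by a floor, the lowest signal of its array that was (log2 -5.28 to -4.25). A spot was called bright when 2-fold brighter than on each other array, values under -4.5 being raised to it. Any spot with 3 or more bright neighbours within 5 rows and 2 columns lay in a patch, whether or not it was bright itself. The 4 arrays share 1 slide and 1 scan.

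Named genes were all members, the pathway genes past 1.5-fold with both arrays well above background and no patch on the brighter one, the 3 genes nearest to Rcan1, any counted pathway gene where 5 or fewer were counted, and Rela and sex-linked checks. Cell type markers are described as lists, and those given values were picked after their values were seen. A list of 5 endothelial markers was left out of that description. In it Pecam1 and Kdr were well above background on all 4 arrays and did not pass 1.5-fold in any comparison. Emcn was well above background on the cKO-labelled array without TNF alone, in a patch, and Cdh5 and Tek on no array. Members, lists and the patch rule were chosen with earlier results of these data known. The counting was tested on simulated data. Alternatives were no scaling, quantile normalization, normexp correction (offset 50, limma 3.58.1 in R 4.3.3), the authors' scaled values, other filters, limits and probe rules, and leaving out patches. A planned comparison of the proteins was not made here. Python 3.11.15, numpy 2.4.6, pandas 2.3.3 and matplotlib 3.10.9 were used. The number of arrays limits the precision.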

Additional observations from a re-analysis of the deposited data

Results flagged for a closer look

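The TNF differences of Nfatc4 ran in opposite directions in the 2 genotypes. On the log2 scale the signal was 0.2933 higher with TNF in Rela fl/fl cultures and differed by -0.2015 on the cKO-labelled arrays, each more than 1 technical spread (0.138) from 0. Each value compares 2 single arrays, and the difference between them was not tested. The spot lay in a patch on the cKO-labelled array without TNF, and its part in the second value was not tested.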

How the results depend on the processing

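No member passed 2-fold under any alternative that kept this limit. With a 1.5-fold limit in its place, 2 members passed for TNF in Rela fl/fl cultures, 1 for TNF on the cKO-labelled arrays, 0 for genotype without TNF and 1 for genotype with TNF. The 1.5-fold counts moved in some settings. For TNF in Rela fl/fl cultures the count of 2 became 1 after quantile normalization, in the authors' scaled values, with both arrays required to be well above background and with the mean over probes, and 0 after normexp. For TNF on the cKO-labelled arrays the count of 1 became 0 without scaling, after quantile normalization and in the authors' scaled values. For genotype without TNF the count of 0 became 1 without scaling. For genotype with TNF Nfatc4 was counted under each of these scalings. Over the alternatives that kept the 2-fold limit, the share of all genes past it moved widely. For TNF it ran from 1.33% to 10% in Rela fl/fl cultures and from 2.23% to 9.93% on the cKO-labelled arrays. For genotype it ran from 2.34% to 11.4% without TNF and from 2.04% to 9.92% with it. Of the pathway genes past 2-fold, the count for TNF in Rela fl/fl cultures (1) became 0 after normexp, with both arrays well above background and at 3-fold, and 2 at 1.5-fold. That for TNF on the cKO-labelled arrays (1) became 0 without scaling, in the authors' scaled values, after normexp and at 3-fold, 2 with no filter and 3 at 1.5-fold. That for genotype without TNF (0) became 1 with no filter and 2 at 1.5-fold. That for genotype with TNF (2) became 1 without scaling, in the authors' scaled values, with both arrays well above background and at 3-fold, 0 after normexp, and 3 with no filter and at 1.5-fold. The causes were not tested.

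Of 240 log2 differences of member probes under alternatives, 233 stayed within the technical spread of the value given, 5 lay outside it and 2 changed sign from a value past that spread. A further 20 changed sign from a value within the spread, the Rcan2 TNF difference on the cKO-labelled arrays among them. The 2 were the TNF difference of the Nfatc2 probe for NM_001136073 on the cKO-labelled arrays, -0.15 as given and 0.0611 after quantile normalization and 0.0234 after normexp. The spread used for these counts was 0.138, that of all signals. At log2 signals under -1, where this probe lies, the spread was 0.237, and the -0.15 is within it. Scaling moved the median TNF difference of all genes on the cKO-labelled arrays from 0.0588 to -0.0462 without scaling and -0.0535 in the authors' values. Relative to that median Rcan1 was 0.53 to 0.56 higher with TNF there, over all scalings. No paired analysis was possible because each group has 1 array, so no replicate number can serve as a block. A fit of genotype plus TNF without their interaction was not run. The 4 arrays give no measure of the spread between cultures or animals, and low signals, as of Nfatc2, limit what could be measured.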
